A study of Mus musculus with 13 samples.

Results

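Neuroblastoma tumours from mice that express mutated ALK in the neural crest were set against tumours from mice that express MYCN there, gene by gene. The members are the 7 arrays whose genotype label reads mutALK (3 arrays) or MYCN (4 arrays), out of 13 arrays in the series, and the 18193 genes that a probe set with a single gene symbol measures. The other arrays are 3 tumours labelled with both MYCN and mutated ALK, called double transgenic here, and 3 normal adrenal glands, the tissue in which many neuroblastomas start. The background strain is C57BL/6 for every array. Mice were killed once they had a palpable tumour, no treatment was given, and total RNA was hybridised to Affymetrix expression arrays. Neither the promoter, the ALK mutation nor the age at death is given in the sources used here, and whether each array is a different mouse is not given either, so the p-values cover only the spread among the arrays, part of which may be technical. Arrays mutALK 2 and mutALK 3 share the leading number of their titles, as do MYCN 2 and MYCN 3.

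ALK is a receptor tyrosine kinase of the developing nervous system, bound by secreted ligands and read out through the RAS and MAPK cascade among others; activating ALK mutations occur in human neuroblastoma. MYCN is a transcription factor that pairs with MAX on E-box DNA and is known for driving ribosome production, metabolism and cell division, and its amplification marks aggressive human neuroblastoma. Neuroblastoma arises from sympathoadrenal cells of the neural crest, which normally become noradrenaline-producing sympathetic neurons and chromaffin cells.

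Values are log2 intensities after robust multi-array averaging (RMA), taken from the brightest probe set of each gene, so 1 log2 unit is a 2-fold difference. Differences are mutALK minus MYCN with the standard error (SE) of a limma fit over the 13 arrays, and a gene is called when its Benjamini-Hochberg adjusted p over all 18193 genes is under 0.05. Intensities of different probe sets are not comparable with each other. As a guide to the level without transcript, 3 Y-linked genes read between 2.73 and 3.53 on the 7 arrays of female mice. Array-to-array correlations across genes were 0.964 to 0.977 among mutALK tumours, 0.980 to 0.989 among MYCN tumours and 0.916 to 0.950 between the models. By Xist and Y-linked genes, 2 mutALK tumours were female and 1 male, against 1 female and 3 male MYCN tumours. Of the arrays with shared title numbers, mutALK 2 was female and mutALK 3 male, so they came from different mice. Both MYCN 2 and MYCN 3 were male, which leaves that question open for them. Liver transcripts were high on mutALK 1, mutALK 3 and MYCN 2, where the mean of 24 liver genes was 10.37, 8.84 and 8.36; mutALK 2 read 4.67 and the other MYCN tumours 4.46 to 5.27. None of the 24 liver genes was called by limma, and none had an unadjusted p under 0.05. Their median difference was still 2.32, the highest of the 48 lists, or -0.15 without these liver-high arrays. With such a spread inside each model, the lack of calls does not show equal liver content. Adrenal cortex markers were low in both models: the mean of 13 steroid-producing cortex genes was 5.33 to 5.42 in mutALK tumours and 5.45 to 5.70 in MYCN tumours, and 11.29 to 12.80 in the adrenal glands. In whole tumours, fewer cells of a type and less RNA per cell cannot be told apart.

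The models differed at 5603 genes, which is 30.8% of those tested, with 2478 higher (13.6%) and 3125 lower (17.2%) in mutALK tumours. The higher genes had the longer tail. At 1 log2 unit or more, 1216 called genes were higher (6.68%) and 1083 lower (5.95%), while at 4 log2 units or more 43 were higher and 18 lower. Neuronal, noradrenergic and MAPK-pathway genes made up much of what is described here as higher in mutALK tumours, and genes of ribosome production, DNA replication and mitosis of what was lower. With the liver-high arrays left out (5 of 13, leaving only mutALK 2 in its group), 4379 genes were called, 3802 of them in the same direction as before, and 5602 of the 5603 kept their sign. In that fit the spread comes wholly from the other groups, and mutALK 2 is assumed to vary like them, so calls kept or lost without the liver-high arrays describe that 1 array against 3 MYCN arrays.

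**Figure D1:**
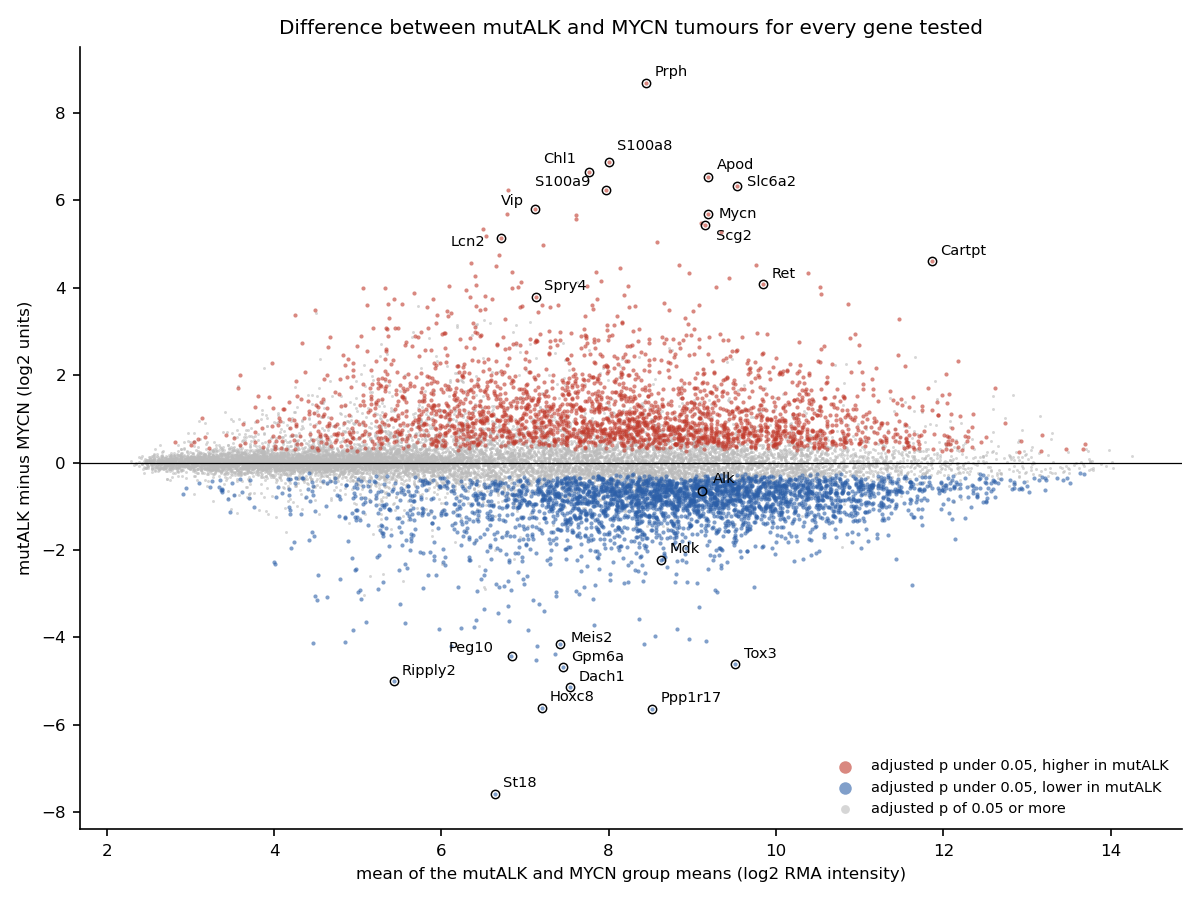
Each point is 1 of 18193 genes, placed by the mean of the mutALK and MYCN group means (horizontal axis, log2 RMA intensity) and by mutALK minus MYCN (vertical axis, log2 units); red and blue points have an adjusted p under 0.05. Prph lies highest at 8.69 and St18 lowest at -7.57, and the open circles mark genes named in the text.

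The transgenes' own genes gave the first contrast. Mycn read 11.79, 11.91 and 12.41 in the mutALK tumours, against 6.30, 5.19, 6.68 and 7.23 in the MYCN tumours. The groups were far apart, and Mycn was higher in mutALK tumours by 5.68 ± 0.51 log2 units (51.4-fold, adjusted p = 3.16e-05). This probe set was also high in double transgenic tumours (9.77, 9.86 and 10.93) and lower in adrenal glands (8.70, 7.43 and 6.92). The other 2 Mycn probe sets did not separate the models: fitted over every probe set, they differed by 0.07 ± 0.15 and 0.01 ± 0.11, with adjusted p = 0.818 and 0.962, and the mean of the 3 probe sets differed by 1.92. Which parts of the mouse gene or of the transgene each probe set reads is not given in the sources used here, so these values do not check the MYCN label. Alk read 8.93, 9.02 and 8.41 in mutALK tumours, against 9.87, 9.08, 9.53 and 9.30 in MYCN tumours. The mutALK values lay just below the MYCN values without overlap, and the difference of -0.66 ± 0.24 missed the threshold (adjusted p = 0.0557). In the adrenal glands Alk read 5.08, 5.49 and 4.92, below every tumour array of both models.

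Among genes of the ALK ligand group, Mdk, which encodes the growth factor midkine, fell. It read 7.11, 7.60 and 7.85 in mutALK tumours and 10.33, 9.50, 9.68 and 9.44 in MYCN tumours, a difference of -2.22 ± 0.30 (adjusted p = 0.000298). Ptn, which encodes the related pleiotrophin, differed by -0.65 ± 0.36 with overlapping groups (adjusted p = 0.218). Ptprz1, a receptor phosphatase bound by both factors, was higher in mutALK tumours by 1.66 ± 0.34 (adjusted p = 0.00334). Of 6 measured members of this group, 1 rose and 1 fell (16.7% each, near the 13.6% and 17.2% of all genes), and 4 did not pass the test.

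**Figure D2:**
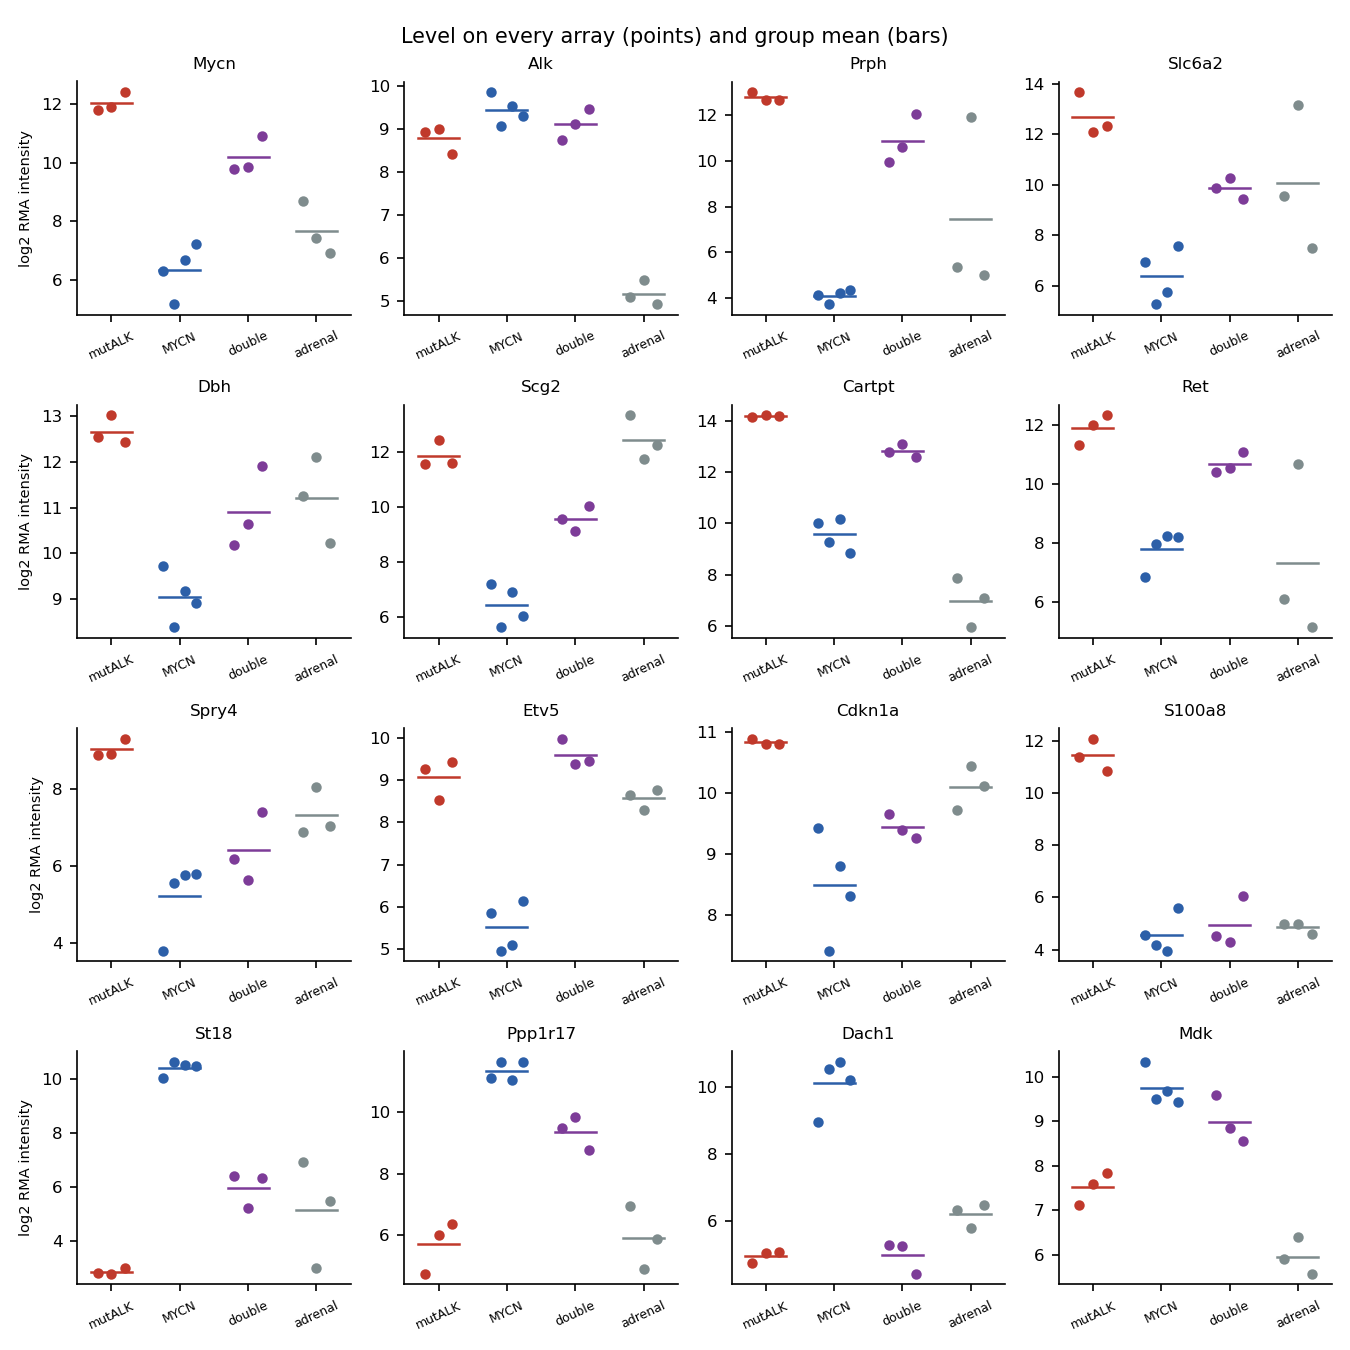
Each panel shows 1 gene: points are single arrays (log2 RMA intensity, panels on their own scales that do not start at 0) and horizontal bars are group means, with 3 mutALK, 4 MYCN, 3 double transgenic and 3 adrenal arrays from left to right. Mycn, Prph and S100a8 are high on every mutALK array, and St18, Ppp1r17 and Dach1 on every MYCN array.

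The largest rise of any called gene was that of Prph, which encodes peripherin, an intermediate filament of peripheral neurons. Prph read 13.02, 12.67 and 12.69 in mutALK tumours and 4.11, 3.73, 4.23 and 4.35 in MYCN tumours. No MYCN array came within 8 log2 units of a mutALK array, and the difference was 8.69 ± 1.31 (413-fold, adjusted p = 0.000551). The double transgenic tumours read 9.94, 10.60 and 12.05.

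Slc6a2, Chl1, Apod, Sncg, Cacng5 and Bmpr1b were also among the 12 largest rises. Slc6a2, the noradrenaline transporter, read 13.68, 12.08 and 12.34 in mutALK tumours and 6.92, 5.26, 5.74 and 7.55 in MYCN tumours. The difference was 6.33 ± 1.06 (80.5-fold, adjusted p = 0.00103). Chl1, an adhesion molecule of the L1 family, read 10.84, 11.79 and 10.64 in mutALK tumours against 5.44, 3.69, 3.97 and 4.66 in MYCN tumours (6.65 ± 0.48, adjusted p = 1.52e-05). Each MYCN array lay over 5 log2 units below each mutALK array. Apod, which encodes the lipid carrier apolipoprotein D, rose by 6.52 ± 0.73 and Sncg, which encodes gamma-synuclein, by 5.57 ± 1.06. Cacng5, an auxiliary subunit of neuronal channels and receptors, rose by 5.66 ± 0.62, and Bmpr1b, a receptor for bone morphogenetic proteins, by 5.48 ± 0.50. For Prph, Slc6a2, Chl1 and Cacng5 the mean over all probe sets of the gene gave smaller differences of 2.64, 3.52, 3.28 and 3.37, each still called.

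Genes that make, store and take up catecholamines rose as a set of individual calls. Of 14 measured members, 9 were higher in mutALK tumours (64.3%, beside 13.6% of all genes), none was lower and 5 did not pass. The median difference was 1.40 beside 0.00 over all genes. Dbh, which converts dopamine to noradrenaline, read 12.54, 13.02 and 12.44 in mutALK tumours against 9.72, 8.37, 9.18 and 8.91 in MYCN tumours. Every mutALK array lay above every MYCN array (3.62 ± 0.49, adjusted p = 0.00027). The vesicular monoamine transporters Slc18a1 and Slc18a2 rose by 2.91 ± 0.48 and 2.94 ± 0.74. When arrays with shared title numbers were averaged, Slc18a2 lost its call (2.77, adjusted p = 0.0695). With the mean of all probe sets Slc18a1 differed by 1.29. Th, the rate-limiting enzyme of the pathway, read 13.36, 13.24 and 11.34 in mutALK tumours and 11.80, 9.89, 11.79 and 11.29 in MYCN tumours. Array mutALK 3 fell inside the MYCN range, and the difference of 1.45 ± 0.56 was not called (adjusted p = 0.0704); without mutALK 3 it was 2.11 (adjusted p = 0.00927).

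Neuropeptides and secretory granule proteins followed, with 47.4% of members called higher, beside 13.6% of all genes. Of 19 measured members, 9 were higher and none lower in mutALK tumours, with a median difference of 0.75; without the liver-high arrays 5 were higher. Scg2, the granule protein secretogranin II, read 11.57, 12.44 and 11.60 in mutALK tumours against 7.20, 5.61, 6.90 and 6.04 in MYCN tumours (5.43 ± 0.45, adjusted p = 2.18e-05). Cartpt, which encodes the CART neuropeptide, was high in both models but higher in mutALK tumours, at 14.14, 14.20 and 14.17 against 10.02, 9.25, 10.15 and 8.85 in MYCN tumours (4.60 ± 0.41). Neither gene's groups overlapped. Vip, which encodes vasoactive intestinal peptide, read 7.07, 12.56 and 10.42 in mutALK tumours, so these 3 arrays spanned more than 5 log2 units, and 3.96, 4.63, 3.98 and 4.29 in MYCN tumours. Its difference was 5.80 ± 1.16 (adjusted p = 0.00292). The peptide galanin, from Gal, rose by 2.48 ± 0.46.

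General neuronal genes lay mostly higher in mutALK tumours, although few were called. Of 29 members, 6 were called higher (20.7%, beside 13.6% of all genes), 1 lower (3.45%, beside 17.2%) and 22 not. Yet the arrays of the models did not overlap for 23 members in the upward direction. Over all genes 19% did not overlap in that direction. The median difference was 0.95. The SE of these genes pools the adrenal arrays, of which adrenal 2 carried neuronal transcripts: the list mean ranged from 6.31 to 10.07 among the 3 adrenal glands. With adrenal 2 left out 22 members were called higher, and in a fit of only the 7 mutALK and MYCN arrays 23 were. Mapt, which encodes the microtubule protein tau, rose by 4.21 ± 0.41 and Dpysl3, a cytoskeletal regulator of growing axons, by 3.29 ± 0.65. Nefh, the heavy neurofilament, went the other way and read 7.62, 6.95 and 8.90 in mutALK tumours against 10.62, 10.93, 10.81 and 10.56 in MYCN tumours. Its groups did not overlap (-2.91 ± 0.81, adjusted p = 0.0173). The Nefh call was lost without mutALK 1 (adjusted p = 0.0549), without mutALK 2 (0.0806) and with shared titles averaged (0.0642).

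Synaptic vesicle genes showed the same split between calls and overlap. Of 22 members 6 were called higher (27.3%, beside 13.6% of all genes) and none lower. For 18 members the groups did not overlap upward, beside 19% of all genes, and the median difference was 1.17. Without adrenal 2, 16 were called higher. Unc13a, which primes vesicles for release, read 7.84, 7.67 and 7.99 in mutALK tumours against 6.67, 5.84, 6.40 and 5.83 in MYCN tumours (1.65 ± 0.42, adjusted p = 0.0115; 0.0614 with shared titles averaged). Cholinergic and nicotinic genes had 4 of 10 members higher (40%, beside 13.6% of all genes) and none lower. Their median was 0.66, or 0.45 without the liver-high arrays. Of the 4, Chrnb2 (0.85 ± 0.30, adjusted p = 0.0499) had overlapping groups and kept its call in 8 of 26 alternatives. Slc18a3 rose by 0.47 ± 0.12, with means of only 4.79 in mutALK and 4.32 in MYCN tumours. Ache, which encodes acetylcholinesterase, rose by 3.49 ± 0.82 and Chrna7, a nicotinic receptor subunit, by 2.30 ± 0.39, or 1.23 with the mean of its probe sets.

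Transcription factors of the sympathoadrenal lineage were mixed. Of 17 measured members 4 rose (23.5%, beside 13.6% of all genes), 3 fell (17.6%, beside 17.2%) and 10 did not pass. The median was 0.28, or 0.10 without the liver-high arrays. Meis2, a homeobox cofactor, had the largest difference: it read 5.42, 5.55 and 5.06 in mutALK tumours and 11.10, 7.39, 10.70 and 8.77 in MYCN tumours. The MYCN arrays spread over more than 3 log2 units but stayed above every mutALK array (-4.14 ± 0.97, adjusted p = 0.00717). Tlx2, a homeobox gene of the neural crest, rose by 1.99 ± 0.31. Gata3, which sympathetic neurons need to make noradrenaline, rose by 1.84 ± 0.31 and lost its call without the liver-high arrays (1.64, adjusted p = 0.083). The T-box factor Tbx20 rose by 3.06 ± 0.87; its call was lost in 4 alternatives, the mean of its probe sets differed by 1.71, and its MYCN arrays ranged from 3.58 to 7.94.

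Receptors for GDNF-family ligands were led by Ret. This receptor tyrosine kinase read 11.33, 11.998 and 12.325 in mutALK tumours and 6.83, 7.96, 8.23 and 8.19 in MYCN tumours. The groups were 3 log2 units or more apart at their nearest arrays (4.08 ± 1.01, 16.9-fold, adjusted p = 0.00939), and double transgenic tumours read 10.39, 10.54 and 11.07. With shared titles averaged the adjusted p of Ret was 0.058. The GDNF co-receptor Gfra1 rose by 1.87 ± 0.43, or 0.79 with the mean of its probe sets. The neurotrophin and GDNF receptor list had 12 measured members. Of these 4 rose (33.3%, beside 13.6% of all genes), 1 fell (8.33%, beside 17.2%) and 7 did not pass. The member that fell was Nrtn, the gene of a GDNF-family ligand (-0.78 ± 0.23, adjusted p = 0.0242). Its groups overlapped, and its call was kept in 18 of 26 alternatives.

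Axon guidance genes had no common direction, with 5 of 38 members higher and 5 lower (13.2% each, near the 13.6% and 17.2% of all genes). Their median was 0.24, or 0.07 without the liver-high arrays. Nrp1, the neuropilin-1 receptor for semaphorins and VEGF, rose by 2.60 ± 0.25. The secreted semaphorin Sema3c rose by 3.58 ± 0.63, or 2.15 with the mean of its probe sets. The Slit receptor Robo1 fell by 3.24 on the log2 scale (SE 0.67), read 4.42, 6.50 and 5.71 in mutALK tumours and 8.65 to 8.99 in MYCN tumours, and lost its call without the liver-high arrays (-2.32, adjusted p = 0.06); the mean of its probe sets differed by -1.22. Schwann cell genes had 6 of 14 members higher (42.9%, beside 13.6% of all genes) and 1 lower (7.14%, beside 17.2%). Cdh19, a cadherin of Schwann cell precursors, read 8.89, 7.56 and 5.54 in mutALK tumours and 3.23, 3.16, 3.02 and 3.90 in MYCN tumours (4.0 ± 0.75, adjusted p = 0.00193). The Schwann cell list mean was 7.95, 7.16 and 6.92 in mutALK tumours, 6.13 to 6.45 in MYCN tumours and up to 8.74 in adrenal glands.

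**Figure D3:**
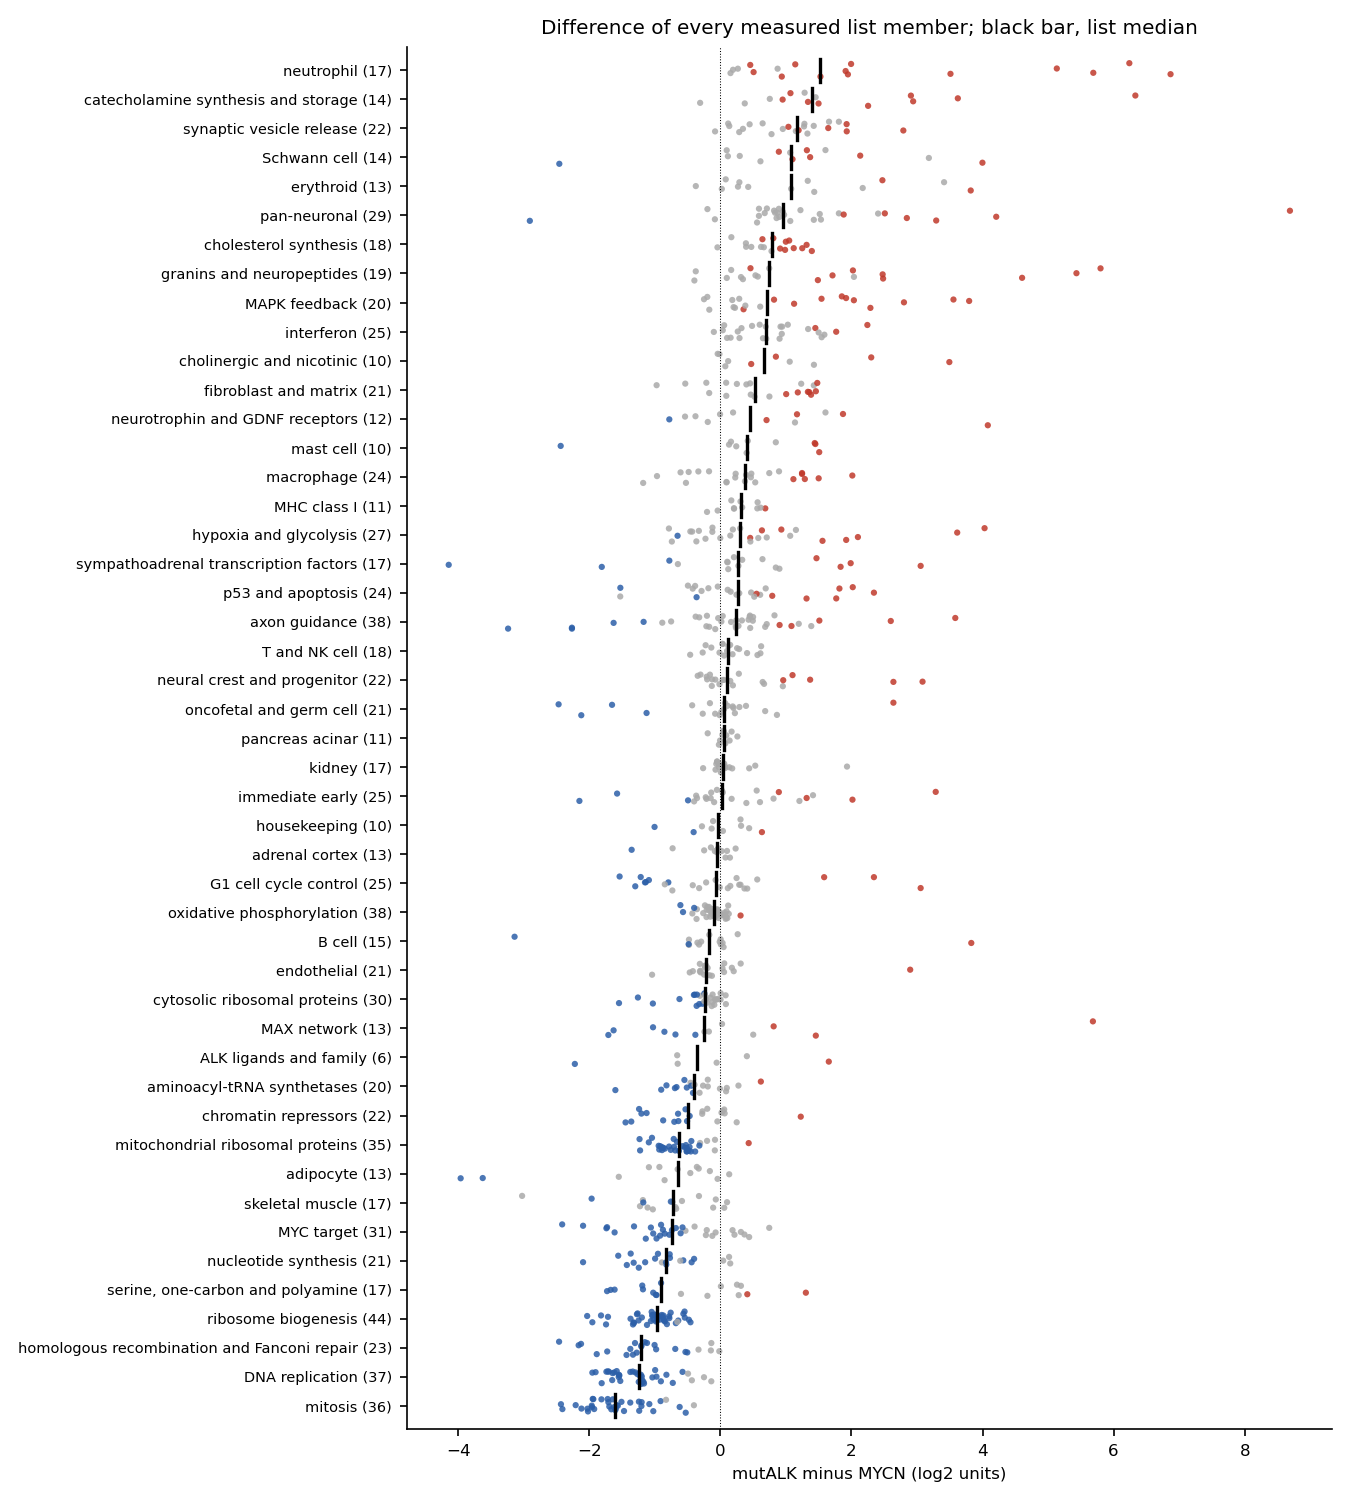
Each point is a measured member of the gene list named at the left (number of measured members in brackets), placed by mutALK minus MYCN (log2 units); red and blue points have an adjusted p under 0.05, grey points do not, and black bars are list medians. The medians of the lists drawn run from -1.61 for mitosis to 1.53 for neutrophil genes. The 24 liver genes, none called and with a median of 2.32, are not drawn.

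Genes that RAS and MAPK signalling switches on, most of them feedback inhibitors of the cascade, rose in mutALK tumours. Of 20 measured members 11 were higher and none lower, beside 13.6% of all genes higher, with a median of 0.71. For 12 of the 20 the groups did not overlap upward, beside 19% of all genes. Without the liver-high arrays 8 were higher. Spry4, a Sprouty inhibitor of receptor signalling, read 8.89, 8.90 and 9.30 in mutALK tumours and 3.81, 5.56, 5.78 and 5.79 in MYCN tumours. Every mutALK array lay more than 3 log2 units above every MYCN array (3.80 ± 0.53, adjusted p = 0.000322). Dusp6, a phosphatase that removes activating phosphates from ERK, read 9.70, 11.39 and 11.24 in mutALK tumours and 7.75, 7.81, 8.02 and 8.31 in MYCN tumours (2.80 ± 0.41, adjusted p = 0.00048). Its lowest mutALK array was mutALK 1.

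The ETS transcription factor Etv5 read 9.27, 8.52 and 9.43 in mutALK tumours and 5.85, 4.97, 5.11 and 6.14 in MYCN tumours, without overlap (3.56 ± 0.31, adjusted p = 2.81e-05). Double transgenic tumours read 9.98, 9.38 and 9.45 for Etv5, beside the mutALK arrays, and 6.18, 5.65 and 7.39 for Spry4, below every mutALK array. Spred3, another inhibitor of the cascade, rose by 2.29 ± 0.32. With the mean of all probe sets Spry4 differed by 1.47 and Etv5 by 2.31. Adrenal glands were not low for this list: its mean was 7.98 to 8.08 there, beside 7.92 to 8.33 in mutALK tumours, 6.76 to 7.34 in MYCN tumours and 7.36 to 7.86 in double transgenic tumours. Immediate early genes, the transient first targets of many signals, had 4 of 25 members higher (16%) and 3 lower (12%). Over all genes these shares were 13.6% and 17.2%. Their median was 0.03, or 0.10 without the liver-high arrays. Ier3, an early response gene linked to ERK, rose by 3.29 ± 0.40, and the orphan nuclear receptor gene Nr4a2 fell by 2.15 on the log2 scale (SE 0.19), or by 1.06 with the mean of its probe sets.

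Dusp9, by contrast, was among the largest falls although its product also dephosphorylates ERK. It read 5.25, 4.42 and 5.84 in mutALK tumours and 9.31, 9.87, 9.44 and 9.57 in MYCN tumours (-4.38 ± 0.36, adjusted p = 2.18e-05), and its double transgenic values of 7.72, 6.89 and 6.24 lay between.

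The largest fall was that of St18, a zinc-finger transcription factor of the MYT family. St18 read 2.80, 2.78 and 3.0 in mutALK tumours, inside the range that Y-linked genes gave in female mice, and 10.05, 10.64, 10.52 and 10.49 in MYCN tumours. The difference was -7.57 ± 0.68 (190-fold lower in mutALK tumours on this scale, adjusted p = 3.23e-05). Double transgenic tumours read 6.39, 5.21 and 6.32.

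Ppp1r17, a phosphatase inhibitor best known from cerebellar Purkinje cells, read 4.75, 6.02 and 6.36 in mutALK tumours and 11.11, 11.62, 11.02 and 11.60 in MYCN tumours (-5.63 ± 0.49). Dach1, a transcriptional cofactor of organ development, read 4.76, 5.06 and 5.10 in mutALK tumours and 8.95, 10.54, 10.74 and 10.20 in MYCN tumours (-5.13 ± 0.38). Neither gene's groups overlapped. For Dach1 the double transgenic tumours, at 5.29, 5.26 and 4.44, were at the mutALK level, and the mean of its probe sets differed by -3.33. Ripply2, a somite regulator, fell by 5.0 on the log2 scale (SE 0.45), and the imprinted, retrotransposon-derived Peg10 by 4.43 (SE 0.49). The WNT-binding protein gene Sfrp2 fell by 4.51 (SE 0.49), and Tox3, a high-mobility-group chromatin protein of neurons, by 4.62 (SE 0.74).

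Array mutALK 3 stood apart for the neuronal membrane glycoprotein gene Gpm6a. It read 3.39 and 4.29 on mutALK 1 and mutALK 2 but 7.65 on mutALK 3, and 9.56 to 10.08 in MYCN tumours (-4.68 ± 0.82, adjusted p = 0.00137). Hoxc8, a homeobox gene of the trunk, read 4.84, 5.08 and 3.28 in mutALK tumours, 9.70 to 10.40 in MYCN tumours and 9.44 to 10.23 in adrenal glands; its difference of -5.60 ± 1.01 lost its call without the liver-high arrays (-4.79, adjusted p = 0.0867). Asb4, a substrate adaptor of ubiquitin ligases, was low on MYCN 1 (4.66) but not on the other MYCN tumours (9.05 to 9.91), beside 3.81, 3.91 and 4.33 in mutALK tumours (-4.20 ± 0.97); without the liver-high arrays it was not called (-3.74, adjusted p = 0.158). Mbnl3, an RNA-binding splicing regulator, differed by -4.20 ± 0.61, and by -2.30 without the liver-high arrays.

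Genes of the MAX network, MYC proteins with their partners and rivals, moved both ways. Of 13 members 3 were higher (23.1%, beside 13.6% of all genes) and 6 lower (46.2%, beside 17.2%). Mycn itself, whose transgene and mouse transcripts were not told apart, and Myc are among the 3. Mycl, the third family member, read 5.79, 6.40 and 6.60 in mutALK tumours and 8.51, 7.50, 7.67 and 7.88 in MYCN tumours (-1.63 ± 0.29, adjusted p = 0.00145; -0.77 with the mean of its probe sets). Mxd3, a MAX partner of dividing cells, fell by 1.71 on the log2 scale (SE 0.34). Myc read 8.67, 7.83 and 7.16 in mutALK tumours and 6.44, 6.13, 6.30 and 6.82 in MYCN tumours. The Myc groups did not overlap (1.46 ± 0.41, adjusted p = 0.0191), but the call was lost without mutALK 1 (1.06, adjusted p = 0.0907), without mutALK 2 (0.0523), without MYCN 2 (0.0524) and with shared titles averaged (0.0506).

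Textbook targets of MYC proteins were lower in mutALK tumours wherever they were called. Of 31 measured members 19 fell, none rose and 12 did not pass, with a median difference of -0.74, beside a background of 17.2% of all genes called lower. Srm, which makes spermidine, read 10.40, 10.17 and 10.46 in mutALK tumours and 11.89, 12.26, 12.01 and 12.14 in MYCN tumours (-1.73 ± 0.14, adjusted p = 2.18e-05). Cad, the enzyme that starts pyrimidine synthesis, read 7.84, 7.61 and 8.14 in mutALK tumours and 9.79, 10.18, 9.98 and 9.87 in MYCN tumours (-2.09 ± 0.20, adjusted p = 4.78e-05; -1.26 with the mean of its probe sets). The groups of both genes were more than 1 log2 unit apart. Tert, the catalytic subunit of telomerase, fell by 2.41 on the log2 scale (SE 0.43), or by 1.29 with the mean of its probe sets. It read 4.34, 4.46 and 4.35 in mutALK tumours, 6.71 to 6.99 in MYCN tumours and 5.12 to 6.59 in double transgenic tumours. The list mean was 10.44, 10.45 and 10.76 in mutALK tumours, 11.17 to 11.28 in MYCN tumours and 10.76 to 10.94 in double transgenic tumours.

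MYC proteins bind the E-box CACGTG, so the 250 bases before the start of each gene were searched for these letters on both strands in RefSeq promoters of GRCm38.p6. Of the 26 MYC target genes with a listed promoter 10 held it (38.5%), beside 1262 of 14452 array genes (8.73%); the list was drawn from known targets, so its share is no independent evidence. Of 39 ribosome biogenesis genes 4 held it (10.3%). The 3 promoters shown are those of the called MYC target genes with the largest falls among those with a single listed start and an E-box in the window. Capitals mark the E-box, each window ends at the base before the start, and the genes were chosen after their values were seen.
Apex1, chr14:50924699-50924948, plus strand: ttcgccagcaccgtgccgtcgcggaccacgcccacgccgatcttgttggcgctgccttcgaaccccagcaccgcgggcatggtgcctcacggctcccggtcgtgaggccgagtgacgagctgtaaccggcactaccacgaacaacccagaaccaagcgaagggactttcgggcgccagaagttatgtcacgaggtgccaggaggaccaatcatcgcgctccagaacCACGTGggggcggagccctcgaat
Cdk4, chr10:127063285-127063534, plus strand: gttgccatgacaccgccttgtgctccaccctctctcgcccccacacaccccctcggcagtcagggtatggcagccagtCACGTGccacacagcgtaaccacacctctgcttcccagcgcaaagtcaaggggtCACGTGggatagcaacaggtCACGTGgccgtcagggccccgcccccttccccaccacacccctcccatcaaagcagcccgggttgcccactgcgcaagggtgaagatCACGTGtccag
Ran, chr5:129019906-129020155, plus strand: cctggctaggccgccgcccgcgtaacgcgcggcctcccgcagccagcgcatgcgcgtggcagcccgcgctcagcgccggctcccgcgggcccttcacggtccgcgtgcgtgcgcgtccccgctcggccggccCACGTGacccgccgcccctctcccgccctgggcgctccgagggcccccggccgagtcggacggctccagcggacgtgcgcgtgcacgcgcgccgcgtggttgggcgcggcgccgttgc
The E-box begins 24 bases before the start in Apex1, a DNA repair endonuclease that fell by 1.32 on the log2 scale. Cdk4, the kinase that opens the cell cycle at G1, has 4 matches between 172 and 11 bases before its start and fell by 1.14 on the log2 scale. In Ran, the GTPase of nuclear transport, the match begins 118 bases before the start, and the gene fell by 0.61 on the log2 scale. A match is a description of the letters and not of binding in these tumours.

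Ribosome biogenesis genes were lower almost throughout. Of 44 nucleolar and RNA polymerase I genes 43 were lower in mutALK tumours (97.7%, beside 17.2% of all genes). None was higher, and 1 (Polr1a, -0.65) did not pass. The arrays of the models did not overlap for any of the 44, beside 21.6% of all genes in that direction, and the median difference was -0.97. Gnl3, which encodes the nucleolar GTPase nucleostemin, read 9.37, 9.40 and 9.79 in mutALK tumours and 11.23, 11.41, 11.24 and 11.17 in MYCN tumours (-1.74 ± 0.17, adjusted p = 4.67e-05). Rrp1b, a nucleolar scaffold, read 8.39, 8.16 and 8.53 in mutALK tumours and 10.36, 10.33, 10.32 and 10.24 in MYCN tumours (-1.95 ± 0.18). Both genes were tightly grouped in the MYCN tumours and more than 1 log2 unit lower on each mutALK array. Wdr43, of the small-subunit processome, fell by 1.82 on the log2 scale (SE 0.19). Ebna1bp2, which works on large-subunit precursors, fell by 2.03 (SE 0.20), or by 0.57 with the mean of its probe sets. The list mean was 9.10, 9.05 and 9.39 in mutALK tumours, 10.05 to 10.36 in MYCN tumours, 9.65 to 9.76 in double transgenic tumours and 8.50 to 9.05 in adrenal glands.

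Ribosomal proteins themselves differed less. Of 30 measured cytosolic ribosomal proteins 11 fell (36.7%, beside 17.2% of all genes) and none rose, with a median of -0.23. Their signals are open to cross-hybridisation with the many pseudogenes of this family. With sex as a covariate 6 fell, with the title number as a random block also 6, and without the liver-high arrays 5. Mitochondrial ribosomal proteins had 30 of 35 lower (85.7%, beside 17.2% of all genes) and 1 higher (2.86%, beside 13.6%), with a median of -0.63. Mrpl4, of the large mitochondrial subunit, read 9.02, 8.87 and 9.13 in mutALK tumours and 10.10, 10.32, 10.25 and 10.25 in MYCN tumours (-1.22 ± 0.10, adjusted p = 2.18e-05). Oxidative phosphorylation genes, most of them encoding parts of the same organelle, had 3 of 38 lower and 1 higher, with a median of -0.09. These shares of 7.89% lower and 2.63% higher were below the 17.2% and 13.6% of all genes.

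Aminoacyl-tRNA synthetases, which load amino acids onto tRNA, had 9 of 20 members lower and 1 higher (5 lower without the liver-high arrays), with Vars, the valine enzyme, at -1.60 ± 0.11. Shares of the synthetases were 45% lower and 5% higher, beside 17.2% and 13.6% of all genes. Nucleotide synthesis genes had 16 of 21 lower (76.2%, beside 17.2% of all genes) and none higher, with a median of -0.83. Pfas, of purine synthesis, read 8.40, 8.54 and 9.0 in mutALK tumours and 9.88, 10.40, 10.31 and 10.22 in MYCN tumours (-1.56 ± 0.21, adjusted p = 0.000248). Ctps, which makes CTP, fell by 1.37 on the log2 scale (SE 0.17). Serine, one-carbon and polyamine genes had 9 of 17 lower (52.9%, beside 17.2% of all genes) and 2 higher (11.8%, near 13.6%). Psat1, of serine synthesis, and mitochondrial Shmt2 fell by 1.67 (SE 0.32) and 1.61 (SE 0.32), while Sat1, which breaks polyamines down, rose by 1.31 ± 0.23 and lost its call without the liver-high arrays (adjusted p = 0.0617).

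**Figure D4:**
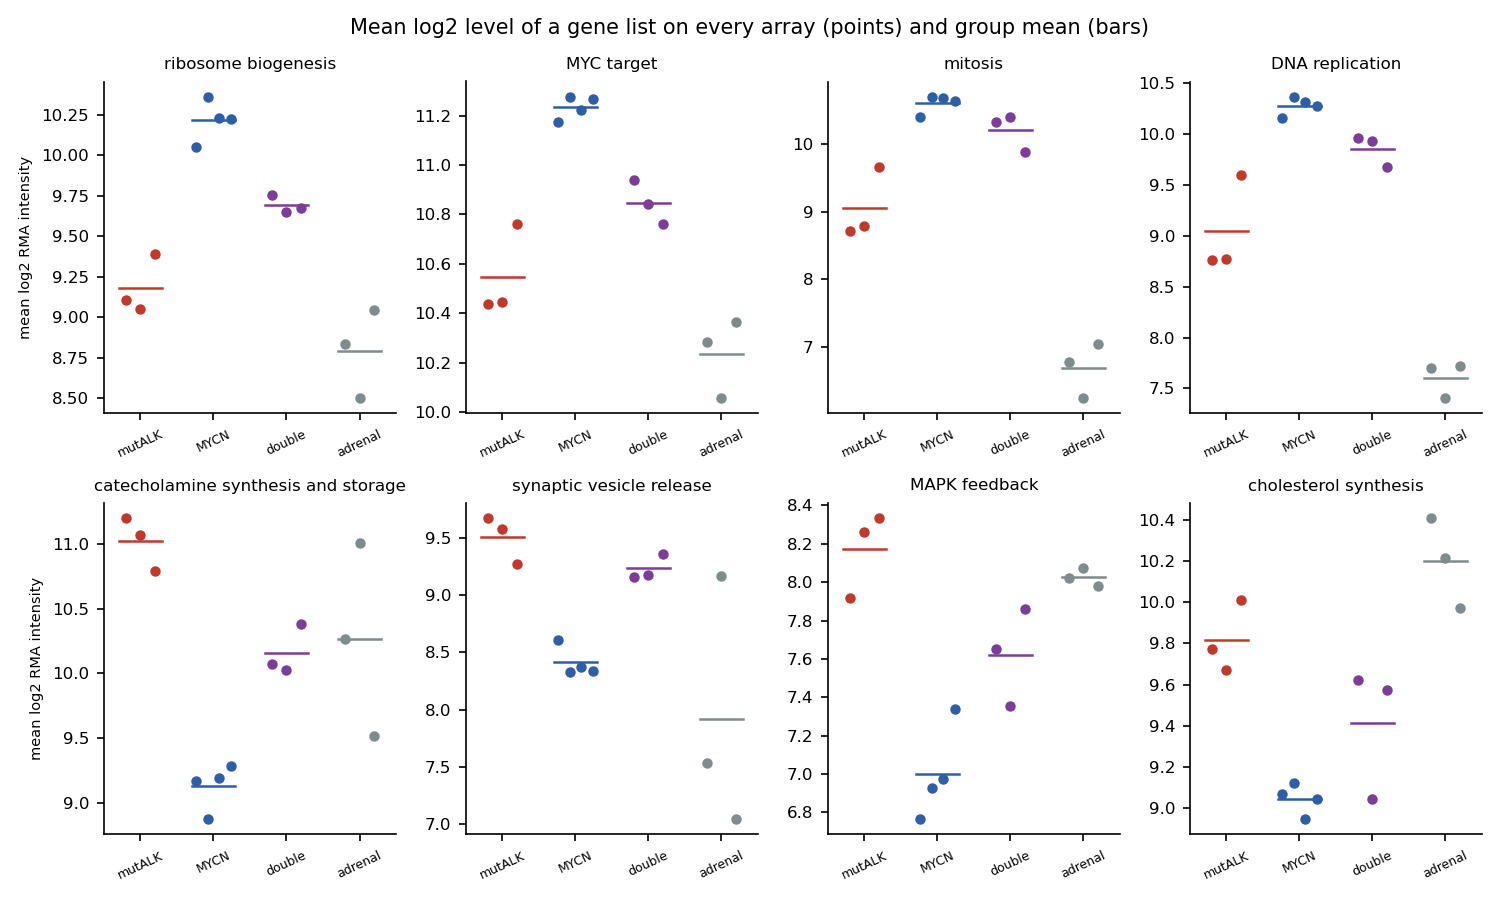
Each panel shows the mean log2 RMA intensity of 1 gene list on every array (points, panels on their own scales that do not start at 0) with the group mean as a bar, for mutALK, MYCN, double transgenic and adrenal arrays from left to right. Ribosome biogenesis, MYC target, mitosis and DNA replication means are lower on each mutALK array than on each MYCN array, and mutALK 3 is the highest mutALK array in all 4.

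Cell division genes had the lowest medians of the 48 lists. Of 36 mitosis genes 34 were lower in mutALK tumours (94.4%, beside 17.2% of all genes) and none higher (median -1.61). Of 37 DNA replication genes 33 were lower (89.2%, beside 17.2%) and none higher (median -1.24). Plk1, a kinase of mitotic entry and spindle assembly, read 7.99, 7.81 and 8.62 in mutALK tumours and 10.33, 10.77, 10.62 and 10.48 in MYCN tumours (-2.41 ± 0.22, adjusted p = 3.46e-05). Cdc20, which activates the anaphase-promoting complex, read 10.04, 9.97 and 10.99 in mutALK tumours and 12.38, 12.57, 12.65 and 12.57 in MYCN tumours (-2.21 ± 0.27, adjusted p = 0.000147). In both genes mutALK 3 was the highest mutALK array and still more than 1 log2 unit below the lowest MYCN array. The spindle checkpoint kinases Ttk and Bub1b fell by 2.43 (SE 0.52) and 2.12 (SE 0.19) on the log2 scale, Bub1b by 1.31 with the mean of its probe sets.

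Among replication genes, Mcm7 and Mcm5, subunits of the replicative helicase, fell by 1.74 (SE 0.21) and 1.81 (SE 0.30) on the log2 scale. Gins2, of the same helicase complex, read 7.07, 7.17 and 8.14 in mutALK tumours and 9.18, 9.51, 9.40 and 9.55 in MYCN tumours (-1.95 ± 0.22, adjusted p = 0.000112). Homologous recombination and Fanconi repair genes had 19 of 23 lower (82.6%, beside 17.2% of all genes) and none higher (median -1.20). The recombination motor gene Rad54b led them at -2.46 ± 0.32. The mitosis list mean was 8.72, 8.79 and 9.66 in mutALK tumours and 10.40 to 10.70 in MYCN tumours; adrenal glands read 6.24 to 7.05.

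Many mitotic promoters carry a CCAAT box and the cell cycle homology region TTTGAA. In the same 250-base windows, CCAAT or its reverse complement stood in 21 of 30 mitosis genes (70%) beside 39.4% of the 14452 array genes, and TTTGAA or its reverse complement in 8 of 30 (26.7%) beside 14.1%. Other lists held CCAAT often too: 62.1% of 29 DNA replication genes, and 55.6% of 18 pan-neuronal genes, a list with more members higher than lower in mutALK tumours. TTTGAA stood in 17.2% of those replication genes and 16.7% of those pan-neuronal genes. The 2 promoters shown belong to the called mitosis genes with the largest falls, a single listed start and both motifs; capitals mark the motifs, which do not overlap each other there.
Cdc20, chr4:118437344-118437593, minus strand: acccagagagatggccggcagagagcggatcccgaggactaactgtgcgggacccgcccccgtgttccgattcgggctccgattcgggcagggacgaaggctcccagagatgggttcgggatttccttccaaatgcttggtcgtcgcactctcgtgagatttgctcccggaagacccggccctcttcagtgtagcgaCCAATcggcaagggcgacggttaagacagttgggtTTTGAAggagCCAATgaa
Ccnb2, chr9:70421555-70421804, minus strand: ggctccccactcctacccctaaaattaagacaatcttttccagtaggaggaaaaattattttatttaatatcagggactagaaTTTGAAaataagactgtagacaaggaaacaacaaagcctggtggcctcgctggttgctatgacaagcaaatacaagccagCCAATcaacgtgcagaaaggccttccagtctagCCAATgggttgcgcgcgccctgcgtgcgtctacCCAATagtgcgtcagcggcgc
Cdc20 has 3 matches, beginning between 53 and 8 bases before the start. Ccnb2, which encodes cyclin B2, has 4 matches between 167 and 21 bases before the start and fell by 1.96 on the log2 scale. These matches say nothing of what bound the promoters in either model.

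Of 25 G1 control genes 3 rose (12%, beside 13.6% of all genes) and 7 fell (28%, beside 17.2%). The 3 that rose were Cdkn1a, Cdkn2a and Cdkn2b, each the gene of a CDK inhibitor. Cdkn1a, which encodes p21, read 10.90, 10.81 and 10.80 in mutALK tumours and 9.43, 7.42, 8.81 and 8.32 in MYCN tumours (2.34 ± 0.37, 5.08-fold, adjusted p = 0.000681). The mutALK arrays were nearly equal, while the MYCN arrays spread over 2 log2 units. Cdkn2a, the locus of p16 and p19ARF, read 9.95, 9.80 and 9.92 in mutALK tumours against 7.13, 6.14, 8.38 and 5.68 in MYCN tumours (3.06 ± 0.76, adjusted p = 0.00984), and lost its call without the liver-high arrays (2.73, adjusted p = 0.168). Cdkn2b, which encodes p15, rose by 1.58 ± 0.21. E2f8, a cell cycle transcription factor, fell by 1.54 on the log2 scale (SE 0.34), or by 0.89 with the mean of its probe sets.

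Genes of the p53 response and of apoptosis had 7 of 24 members higher (29.2%, beside 13.6% of all genes) and 2 lower (8.33%, beside 17.2%). The median was 0.27, and Cdkn1a is counted in this list as well as among the G1 genes. Trp53inp1 and Pmaip1, both p53 targets that promote cell death, rose by 1.82 ± 0.38 and 1.77 ± 0.32, Trp53inp1 by 1.03 with the mean of its probe sets. Phlda3, a p53-induced inhibitor of AKT, rose by 2.02 ± 0.52 and lost its call with shared titles averaged (adjusted p = 0.0632). Chromatin repressors had 12 of 22 members lower (54.5%, beside 17.2% of all genes) and 1 higher (4.55%, beside 13.6%). Ezh2, the histone H3 lysine methyltransferase of dividing cells, read 9.31, 9.48 and 10.59 in mutALK tumours and 11.11, 11.22, 11.23 and 11.04 in MYCN tumours (-1.36 ± 0.27, adjusted p = 0.00275). Its relative Ezh1 was the member that rose (1.23 ± 0.20, or 0.45 with the mean of its probe sets). Uhrf1, which guides maintenance DNA methylation, fell by 1.45 on the log2 scale (SE 0.26).

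Cholesterol synthesis genes had 10 of 18 members higher (55.6%, beside 13.6% of all genes) and none lower, with a median of 0.80. Hmgcs1, an early enzyme of the pathway, read 12.87, 12.20 and 12.79 in mutALK tumours and 11.29, 11.29, 11.07 and 11.24 in MYCN tumours (1.40 ± 0.19, adjusted p = 0.000288). Liver also makes cholesterol; without the liver-high arrays 4 members were called higher and the median was 0.73. Hypoxia and glycolysis genes had 8 of 27 higher (29.6%, beside 13.6% of all genes) and 1 lower (3.7%, beside 17.2%). In a fit of only the mutALK and MYCN arrays 13 were higher. Egln3, an oxygen-sensing hydroxylase that hypoxia induces, read 9.19, 9.90 and 10.18 in mutALK tumours and 6.88, 4.49, 5.83 and 5.70 in MYCN tumours (4.03 ± 0.56, adjusted p = 0.000322). Double transgenic tumours read 11.63, 11.60 and 10.0. Bnip3, a hypoxia-induced mitophagy receptor, rose by 2.10 ± 0.28, and the brain aldolase gene Aldoc by 3.61 ± 0.51, or 1.92 with the mean of its probe sets.

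Granulocyte genes were high on every mutALK array and on no other tumour array. Of 17 neutrophil genes 13 were higher in mutALK tumours (76.5%, beside 13.6% of all genes) and none lower. Their median of 1.53 was the highest of any list apart from the liver genes. S100a8, a calcium-binding subunit of calprotectin, read 11.38, 12.08 and 10.85 in mutALK tumours and 4.55, 4.17, 3.96 and 5.59 in MYCN tumours (6.87 ± 0.47, 117-fold, adjusted p = 1.28e-05). Its partner S100a9 read 10.88, 11.83 and 10.55 in mutALK tumours and 4.91, 4.90, 4.19 and 5.39 in MYCN tumours (6.24 ± 0.40). Both were among the 12 largest rises, with mutALK 2 the highest array. The chitinase-like Chil3 rose by 5.69 ± 0.57 and lipocalin 2, from Lcn2, by 5.13 ± 0.63. The neutrophil list mean was 7.01, 8.10 and 7.09 in mutALK tumours and 4.97 to 5.28 in MYCN tumours. Without the liver-high arrays the median difference was 2.27, but the mutALK group is then mutALK 2 alone, the array with the highest neutrophil mean. The part of infiltrating or circulating granulocytes in these values was not tested.

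Red cell and interferon genes instead marked single mutALK arrays. The mean of 13 erythroid genes was 7.92 on mutALK 2, against 5.25 on mutALK 1, 5.97 on mutALK 3 and 5.0 to 5.35 in MYCN tumours; Slc4a1, the band 3 protein of red cells, read 5.80, 11.07 and 8.44 in mutALK tumours, with a difference of 3.82 ± 0.90 that was 2.50 without mutALK 2 and 6.23 without the liver-high arrays. In that last setting the mutALK group is mutALK 2 itself, the array with the highest erythroid mean. Over all arrays 2 of the 13 erythroid genes were called higher (15.4%, near the 13.6% of all genes). The mean of 25 interferon-response genes was 7.78 on mutALK 1, against 6.34 and 5.97 on the other mutALK tumours and 5.63 to 6.18 in MYCN tumours. Of these 25 genes 3 were called higher (12%, near the 13.6% of all genes), with Oasl2, an interferon-induced relative of the oligoadenylate synthetases, at 2.24 ± 0.36. Macrophage genes had 6 of 24 higher (25%, beside 13.6% of all genes) and none lower. Without the liver-high arrays 1 was higher and 1 lower. None of 18 T and NK cell genes was called by limma, 3 had an unadjusted p under 0.05, 2 were called with array weights, and the median difference was 0.11.

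Markers of other cell types moved in part. Called higher were 33.3% of fibroblast and matrix genes, 30% of mast cell genes and 4.76% of endothelial genes, beside 13.6% of all genes. Of the mast cell genes 10% were called lower, beside 17.2% of all genes. Vwf, the endothelial clotting factor gene, read 7.41, 8.30 and 8.03 in mutALK tumours and 4.77, 4.47, 5.17 and 5.66 in MYCN tumours (2.90 ± 0.49, adjusted p = 0.00103), yet it was the 1 called gene of 21 endothelial genes. Ebf1, a transcription factor used as a B cell marker, rose by 3.83 ± 0.33, whereas Rag1, the recombinase of lymphocyte precursors, read 2.82, 2.86 and 3.17 in mutALK tumours and 5.99 to 6.18 in MYCN tumours (-3.14 ± 0.22, adjusted p = 1.35e-05). In all, 1 of 15 B cell genes rose (6.67%, beside 13.6% of all genes) and 2 fell (13.3%, beside 17.2%). Kit, a receptor tyrosine kinase of mast cells and of the neural crest, fell by 2.43 on the log2 scale (SE 0.39), or by 1.51 with the mean of its probe sets, while 3 other mast cell genes of 10 rose, none of them called without the liver-high arrays. Fibroblast and matrix genes had 7 of 21 higher and none lower, among them Postn, which encodes periostin (1.46 ± 0.31); without the liver-high arrays 3 were higher and 1 lower.

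Of 13 adipocyte genes none rose and 2 fell (15.4%, near the 17.2% of all genes called lower), and both are known from brown fat. Cidea, a lipid droplet protein of brown fat, read 5.99, 6.84 and 6.89 in mutALK tumours and 9.06, 10.96, 10.86 and 11.26 in MYCN tumours (-3.96 ± 0.75, adjusted p = 0.00213). Ucp1, the uncoupling protein that generates heat, differed by -3.62 ± 0.95 and lost its call without the liver-high arrays (-3.61, adjusted p = 0.142) and with shared titles averaged (-3.68, adjusted p = 0.0654). The adipocyte list mean was 6.30 to 7.22 in mutALK tumours and 6.70 to 9.01 in MYCN tumours, with overlapping groups and the highest mean on MYCN 4. Skeletal muscle genes had 3 of 17 members lower (17.6%, near the 17.2% of all genes). Their median was -0.73, or -0.94 without the liver-high arrays. The list mean was 7.06 on MYCN 3 and 4.43 to 4.78 on the other mutALK and MYCN tumours.

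**Figure D5:**
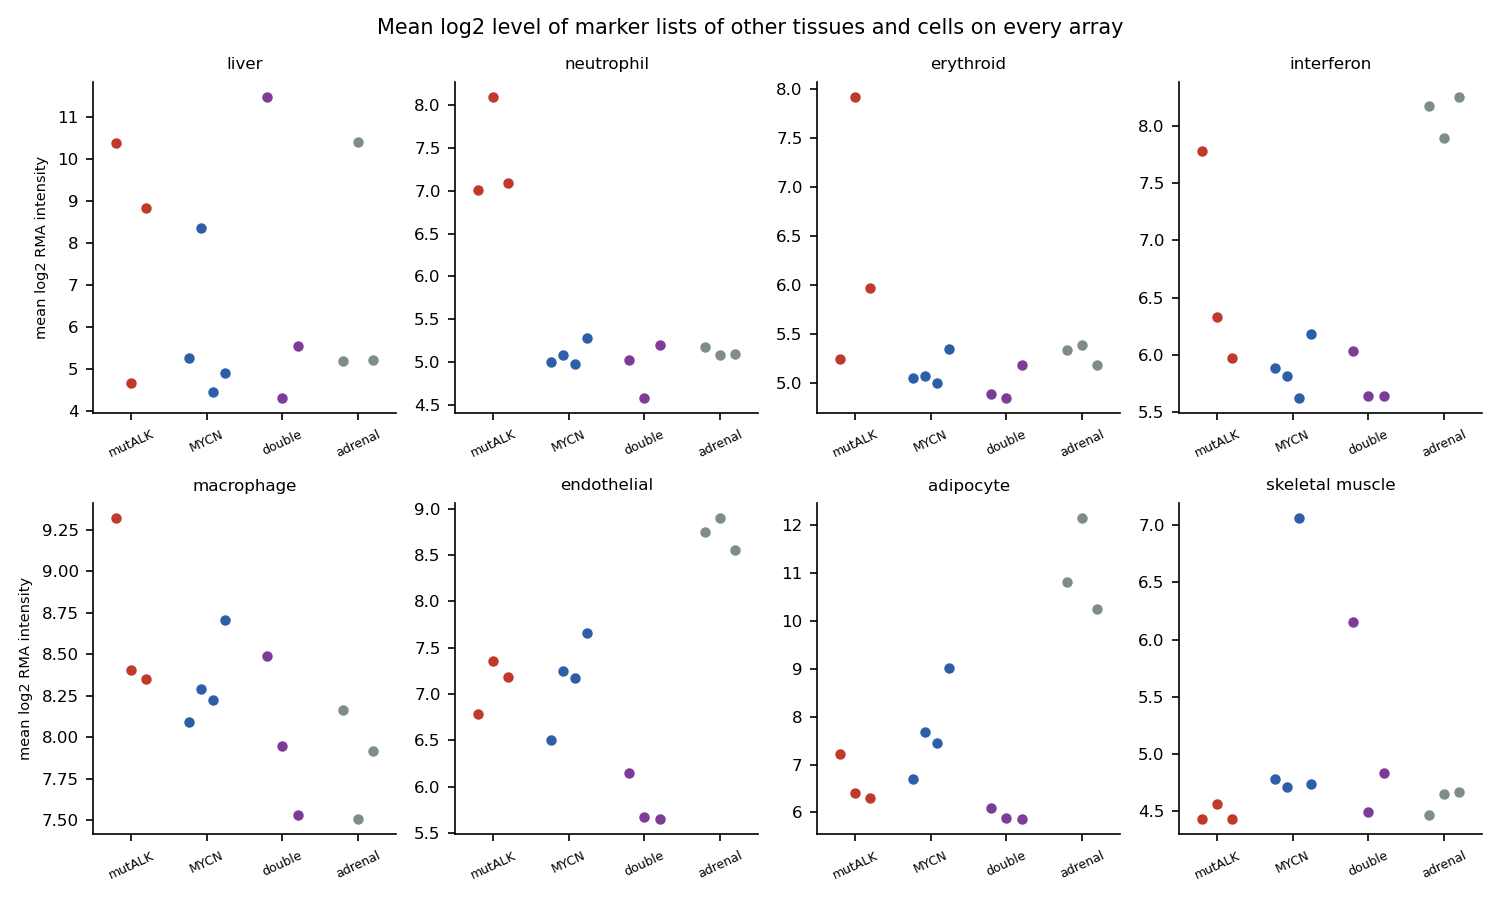
Each panel shows the mean log2 RMA intensity of a marker list of another tissue or cell type on every array (points, panels on their own scales that do not start at 0), for mutALK, MYCN, double transgenic and adrenal arrays from left to right. The liver panel separates mutALK 1, mutALK 3, MYCN 2, double transgenic 1 and adrenal 2 from the rest, and the neutrophil panel the 3 mutALK arrays.

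Among stem and germ cell genes, Lin28a, an RNA-binding protein that blocks let-7 maturation, read 6.51, 4.44 and 6.94 in mutALK tumours and 3.25 to 3.44 in MYCN tumours, where it lay within the range that Y-linked genes gave in female mice. Its difference of 2.64 ± 0.44 (adjusted p = 0.00102) was 1.11 without the liver-high arrays and 1.32 with the mean of its probe sets. Stag3, the cohesin subunit of meiosis, read 4.0, 3.89 and 4.89 in mutALK tumours and 7.51, 6.51, 7.25 and 5.65 in MYCN tumours (-2.47 ± 0.40, adjusted p = 0.000863). Of 21 measured genes of this kind, 1 rose (4.76%, beside 13.6% of all genes) and 4 fell (19%, near the 17.2% of all genes). Housekeeping genes had 1 of 10 higher (10%) and 2 lower (20%), near the shares of all genes, with a median of -0.04. Tbp, which encodes the TATA-binding protein, fell by 1.0 on the log2 scale (SE 0.13), or by 0.49 with the mean of its probe sets.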

How the data were processed

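Total RNA of 13 samples was measured on Affymetrix arrays, and the deposited values are log2 intensities; RMA and Partek are named in the submitters' processing notes, with no version or genome build. Of 45101 probe sets, 34945 carry a single gene symbol in the platform annotation, and the brightest of these by mean over all arrays stood for each of 18193 genes. Groups were taken from the genotype labels. Differences were fitted with limma 3.58.1 in R 4.3.3 (lmFit and eBayes, 4 groups, all 13 arrays, 9 residual degrees of freedom) and p-values were Benjamini-Hochberg adjusted over all genes. The steps were tested on simulated data. Tables used Python 3.11.15 and figures matplotlib 3.10.9. The members, the gene lists (48) and the tests were chosen with earlier results of these data known.

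Genes are named by a rule: Mycn and Alk, the 12 largest called rises and falls of at least 1 log2 unit whose groups did not overlap (without predicted, immunoglobulin, Y-linked, Xist and liver-list genes), up to 4 called members of each list by size, and a few defining members whether called or not. Genes whose promoters are printed, and Polr1a, were named after their values were seen. Alternatives changed the normalization, the probe set, the filter, the variance model, the samples and the covariates, with arrays of a liver mean above 8 left out in one of them. Xist and Y-linked genes gave the sex of each array. The number of arrays limits the precision, and detection calls were not analysed here.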

Additional observations from a re-analysis of the deposited data

Results flagged for a closer look

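In the MYCN group of 4, 1 array was set apart from the other 3 for 19 of 220 values tested, where chance gives about 1 in 20. The test weighs the gap to the nearest array against the range of the group, so small gaps in tight groups are flagged too. The gap was over 1 log2 unit only for Asb4, Spry4, Myh4 and the mean of the skeletal muscle genes. Groups of 3 were not tested. Array MYCN 1 stood low for Asb4 (4.66), Spry4 (3.81), Sox10 (6.36), Itgam (3.15), E2f8 (8.58), Ctps (11.17), Mrps35 (9.90) and Mrps22 (9.96). It stood high for Slc18a1 (6.84), Chrna7 (8.32), Chrnb2 (8.03), Cadps (9.24) and the mean of the synaptic vesicle genes (8.60, the others up to 8.37). Array MYCN 2 stood low for Spred3 (4.24) and H2-M3 (6.32), and MYCN 4 for Rad54b (7.54). Array MYCN 3 stood low for Cdkn2b (5.60) and high for Myh4 (7.58) and the mean of the skeletal muscle genes (7.06, the others up to 4.78).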

How the results depend on the processing

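When each probe set was its own feature, which tests more of them, 9789 were called, 4246 higher and 5543 lower, 4052 of them by at least 1 log2 unit. The other count alternatives stayed within 1.5 times the 5603 calls: leaving out single arrays gave 4264 to 6540, shared titles averaged 4040, the title number as a random block 4466 (correlation 0.456), sex as a covariate 4884 and centring each array on its median 5307, which shifts all genes by -0.12. Of the calls, 2780 kept their direction and call under all 24 alternatives that test all genes. Alk passed the threshold in 6 of 26 alternatives: with the dimmest 40% of genes left out (-0.66, adjusted p = 0.039), with median centring (-0.78, 0.0323), and without MYCN 2 (0.039), adrenal 2 (0.043), double transgenic 1 (0.0469) or double transgenic 3 (0.0495); over the arrays left out it ranged from -0.78 to -0.47, with adjusted p up to 0.209. Xaf1, an interferon-response gene called at 1.45, reversed to -0.36 (adjusted p = 0.399) with the mean of its probe sets. Its 2 probe sets were called in opposite directions. In the limma fit over every probe set, the other one read 4.48 in mutALK and 6.65 in MYCN tumours (-2.17 ± 0.25, adjusted p = 0.000117). Of 168 named calls, 110 held under each alternative and 167 kept their sign; 34 were lost without the liver-high arrays and 32 with shared titles averaged. No paired analysis was possible because the labels give mutALK and MYCN tumours no shared replicate numbers.

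Limits: 3 arrays stand against 4, liver transcripts, sex and shared titles are unevenly spread over the models, and the SE pools adrenal and double transgenic arrays. A gene near the background level in 1 model has a difference that understates its fold. Transgene and mouse transcripts of Mycn and Alk were not told apart.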
